A study of Mus musculus with 8 samples.

Results

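Open chromatin rarely ends sharply at a promoter or an enhancer. The flanks of a strong accessible site often hold weaker accessible sequence, such as a second regulatory element or the linker between nucleosomes that border the site. In ATAC-seq the Tn5 transposase inserts adapters where DNA is exposed, so that a peak marks accessible sequence and a weaker peak beside a strong one marks a shoulder or a separate small element. How cells spread on and pull at their substrate is known to bear on nuclear shape and chromatin compaction, which is the setting of a comparison between culture surfaces.

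The regions described here are accessible sites that were listed on G2 alone and lie close to a site listed in every library. NIH3T3 cells, an immortalised line of mouse embryonic fibroblasts, were cultured for 24 h on G2 or on G128, with 2 ATAC-seq libraries in each group. The labels do not say what G2 and G128 stand for, the series is titled for polyvinyl alcohol and gelatin hydrogels, and all 4 libraries come from this line with no other treatment named. Whether the replicates were separate cultures is not labelled, so spread between them may be technical. Overlap by 1 bp or more joined peaks of the 4 lists into regions. A region with a peak in both G2 lists and in neither G128 list was G2-only, and a region with a peak in all 4 lists was shared. Of 45915 regions in all, 3820 were G2-only and 27768 were shared, and 1375 G2-only regions had an edge at most 5000 bp from the edge of a shared region. These 1375 are called the flanking G2-only regions, and the 2445 others lay farther away. The presence and absence of peaks chose them, so the difference between G2 and G128 in these regions is part of their definition and is not a finding. No annotation of the mouse genome build mm9, to which all coordinates belong, was used here, so the regions carry no gene names and the fibroblast identity was not checked against marker genes.

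The libraries differed in depth and in the number of peaks. The background mean, recovered from the steps of the deposited p-values, was 1.10 and 1.37 overlapping intervals per bp in G2 replicates 1 and 2, and 1.05 and 1.41 in G128 replicates 1 and 2. Replicate 2 was thus the deeper library in both groups. The lists held 42358 and 41585 peaks on G2, against 32540 and 37695 on G128. The weakest listed peak stood 18.2 and 18.3 times above the background mean in the G2 lists, against 18.97 and 18.4 times in the G128 lists. In this text a summit is the highest pileup of a peak divided by the background mean of its library. A region without a listed peak fell below the caller's threshold there and may still have been open.

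The flanks of shared regions were richer in G2-only regions than the rest of the genome, and the same held for every other pattern of 2 libraries. The sequence within 5000 bp of a shared region made up 8.40% of the 2549 Mb between the first and the last region of the chromosomes, and it held 36.0% of the G2-only regions (Wilson 95% interval 34.5 to 37.5%). This corresponds to 6.42 G2-only regions per Mb inside the flanks and 1.05 per Mb outside them, a ratio of 6.13. All intervals of this kind cover counting error only, and regions of a list are not replicates of a condition.

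G2-only regions were less often close to a shared region than the other patterns of 2 libraries pooled. These other patterns, the G128-only regions among them, had 896 of 1804 regions within 5000 bp, or 49.7% (47.4 to 52.0%). The share of G2-only regions was lower by 13.7 percentage points (Newcombe 95% interval of the difference −16.4 to −10.9). Among the single patterns, 56.1% of the 795 regions listed in both replicates 2 lay in the flanks (52.6 to 59.5%), as did 45.9% of the 569 regions of G2 replicate 1 with G128 replicate 2 (41.8 to 49.98%). The share was 45.0% of the 151 regions of G2 replicate 2 with G128 replicate 1 (37.3 to 53.0%), 44.7% of the 170 G128-only regions (37.4 to 52.2%) and 37.8% of the 119 regions of both replicates 1 (29.6 to 46.8%). The intervals of the last 3 patterns overlapped that of the G2-only regions, while those of both replicates 2 and of G2 replicate 1 with G128 replicate 2 lay above it. Shared regions themselves had a further shared region within 5000 bp in 40.2% of cases (39.6 to 40.8%).

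Within each group, the share of regions in the flanks was higher for the deeper library. Regions listed in G2 replicate 2 alone lay in the flanks in 45.8% of 2965 cases, against 35.8% of 2818 for the shallower G2 replicate 1 alone. Regions of G128 replicate 2 alone did so in 61.4% of 1044 cases, and those of G128 replicate 1 alone in 44.9% of 285. Across groups the shares did not follow the order of depth, with 44.9% for G128 replicate 1, the shallowest library, and 35.8% for G2 replicate 1. The part of depth in the difference between patterns was not tested. The G2-only pattern joins the longest lists. With the same number of strongest peaks taken from each list, 32.6% of G2-only regions lay in the flanks, against 43.0% of the other 2-library regions, a difference of −10.5 points.

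**Figure D1:**
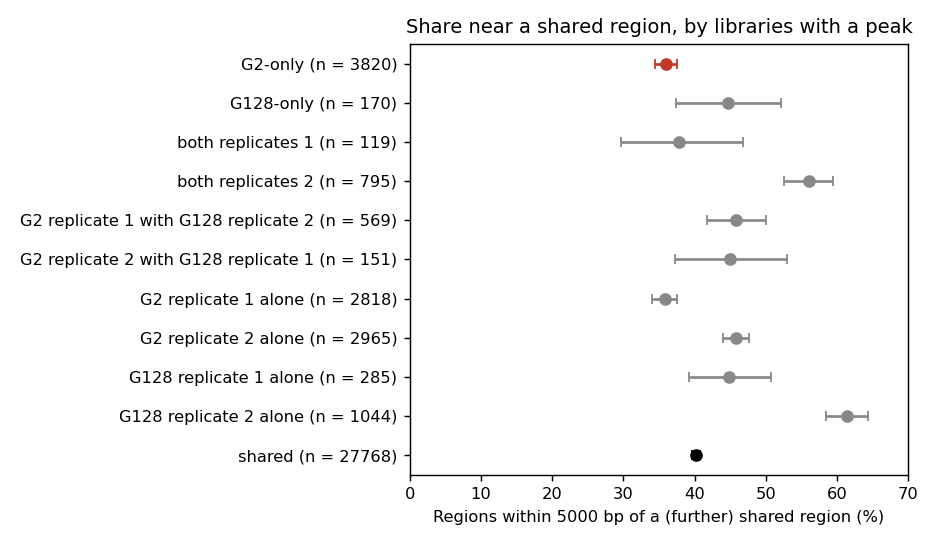
Share of regions (x axis, %) that lie within 5000 bp of a shared region, by the libraries with a peak (rows, n = regions); points are shares and bars Wilson 95% intervals, and for shared regions the distance is to a further shared region. G2-only regions stand at 36.0%, and both replicates 2 at 56.1%.

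The lower share of G2-only regions was most marked in the first 500 bp beside the shared regions. Within 500 bp of a shared edge lay 453 G2-only regions, 11.9% of them (10.9 to 12.9%), against 460 or 25.5% of the other 2-library regions (23.5 to 27.6%). Among these 460, 267 were regions of both replicates 2, or 33.6% of that pattern (30.4 to 36.9%). For both replicates 1 the share was 9.24% (5.24 to 15.8%), so the pooled value does not hold for each pattern. From 500 to 5000 bp lay 922 G2-only regions, 24.1% of them, against 436 or 24.2% of the other 2-library regions. Leaving out all regions within 500 bp, a count added after the data were seen, 27.4% of the remaining G2-only regions lay in the flanks, against 32.4% of the remaining others, a difference of −5.06 points. As a share of all 2-library regions, G2-only regions made up 49.6% within 500 bp (46.4 to 52.9%), 63.2% from 500 to 1000 bp (57.6 to 68.6%) and 66.7% from 1000 to 2000 bp (61.6 to 71.4%). They made up 70.4% from 2000 to 5000 bp (66.9 to 73.6%) and 71.4% from 5000 to 10000 bp (67.9 to 74.6%). Beyond that the share was 73.7% up to 50000 bp and 72.5% farther away.

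The density of G2-only regions fell with each step away from the shared regions. There were 17.5 G2-only regions per Mb within 500 bp, 7.62 from 500 to 1000 bp, 5.11 from 1000 to 2000 bp and 4.26 from 2000 to 5000 bp. The density was 3.11 per Mb from 5000 to 10000 bp, 2.31 up to 50000 bp and 0.374 beyond. Regions of both replicates 2 had 10.3 per Mb within 500 bp and 0.0517 beyond 50000 bp, a steeper course than that of the G2-only regions. Not every pattern fell at each step, and G128-only regions had 0.248 per Mb from 500 to 1000 bp and 0.309 from 1000 to 2000 bp. Within 500 bp and beyond 50000 bp the densities of G128-only regions were 1.43 and 0.0164 per Mb.

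**Figure D2:**
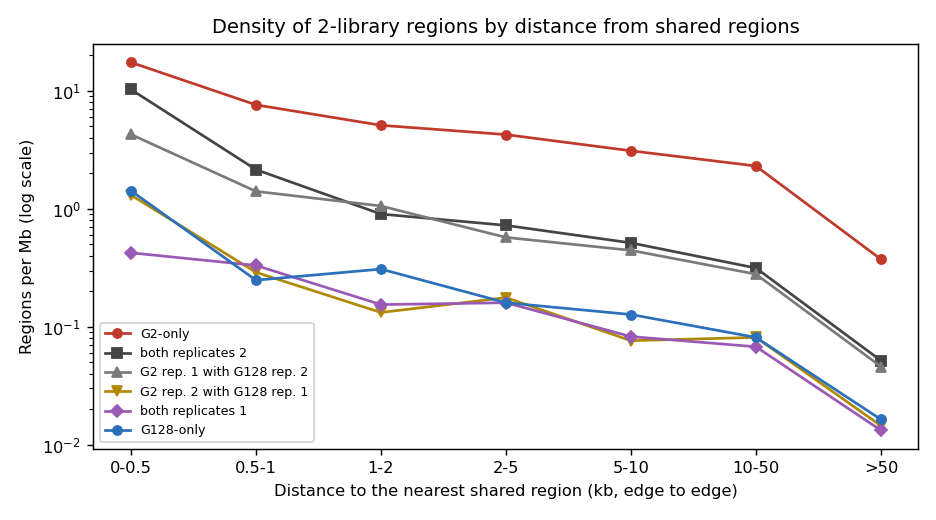
Regions per Mb of sequence (y axis, log scale) in bands of distance to the nearest shared region (x axis, kb), for each pattern of 2 libraries. Every pattern is densest within 0.5 kb, and the G2-only line, at 17.5 per Mb there, stands above the others in each band.

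The flanking G2-only regions lay on either side of the shared region in nearly equal numbers, and most stood alone. Of the 1375, 699 were on the side of lower coordinates (50.8%, 48.2 to 53.5%) and 676 on the other. Their distance to the nearest shared region had a median of 1196 bp, with quartiles of 343 and 2884 bp, and ran from 11 to 4996 bp. In 33 of them it was shorter than the smallest gap between peaks of any list, since joining peaks across libraries widens regions. Shared regions stood within 5000 bp on both sides of 202 regions (14.7%). They had 1311 different nearest shared regions, 4.72% of all shared regions, of which 1251 were nearest to 1 flanking region, 56 to 2 and 4 to 3. In 460 cases (33.5%) a further region that was neither shared nor one of the 1375 lay within 5000 bp.

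At the distance limit the values on either side were alike in kind. The last regions inside the limit lay at 4996 bp, with summits of 27.3 and 21.2 in G2 replicates 1 and 2, and at 4985 bp, with 36.4 and 34.3. The first outside lay at 5007 bp, with 28.2 and 25.6, and at 5023 bp, with 25.5 and 20.5.

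Flanking G2-only regions were narrow and weak, and most stood just above the threshold of the caller. Summits ran from 19.1 to 62.8 in G2 replicate 1 with a median of 24.6, and from 18.3 to 67.2 in G2 replicate 2 with a median of 24.8. No peak was listed in either G128 library, by the rule. In G2 replicate 1, 988 regions (71.9%) and in G2 replicate 2, 974 regions (70.8%) stayed below 1.5 times the weakest summit of their list. This trait was not particular to them, since 71.1% to 95.6% did so in the libraries of the other 2-library patterns within 5000 bp. For G2-only regions beyond 5000 bp it was 68.3% and 70.1% in G2 replicates 1 and 2. Both G2 summits reached 30 times the background in 94 flanking G2-only regions (6.84%) and 40 times in 10. Farther from shared regions, 210 of the 2445 other G2-only regions reached 30 times in both (8.59%) and 27 reached 40 times.

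The flanking G2-only regions were wider by their median than the other patterns in the flanks. Their median width was 220 bp, with quartiles of 172 and 310 bp, against 171 to 182 bp for the medians of the other 2-library patterns within 5000 bp. G2-only regions beyond 5000 bp had a median of 219 bp, so width did not follow distance. Summits in the flanks differed little by pattern, with medians of 23.4 to 24.7 in the libraries of the other patterns. Width was read from the same peaks that chose the regions and was not tested.

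The summits of both G2 libraries lay close together in these regions, which the rule largely sets, since it joins overlapping peaks into narrow regions. They lay a median of 23 bp apart and within 50 bp in 976 of 1375 regions (71.0%, 68.5 to 73.3%), and the peaks shared a median of 74.2% of their joint length. In the other patterns within 5000 bp the median offset was 15 to 20.5 bp. Offsets within 50 bp were found in 66.2% to 81.6% of their regions. Across the 1375 regions the log2 summits of the 2 G2 libraries had a Pearson correlation of 0.44 and a Spearman correlation of 0.35. That is a description across regions of a narrow range of height that share the same libraries.

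Beside the shared region it flanked, a flanking region was usually much lower. Its summit was a median of 36.9% of the summit of the nearest shared region in G2 replicate 1 (quartiles 21.2 and 58.95%) and 35.9% in G2 replicate 2 (20.1 and 57.1%). It was the higher of the pair in 41 regions in replicate 1 and in 39 in replicate 2. Height changed little with distance, with medians of 23.7 and 24.8 in G2 replicates 1 and 2 within 500 bp, and of 25.5 and 24.8 from 2000 to 5000 bp. For G2-only regions beyond 5000 bp the median was 39.1% of the nearest shared summit in G2 replicate 2 and less than 1 point higher in replicate 1.

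**Figure D3:**
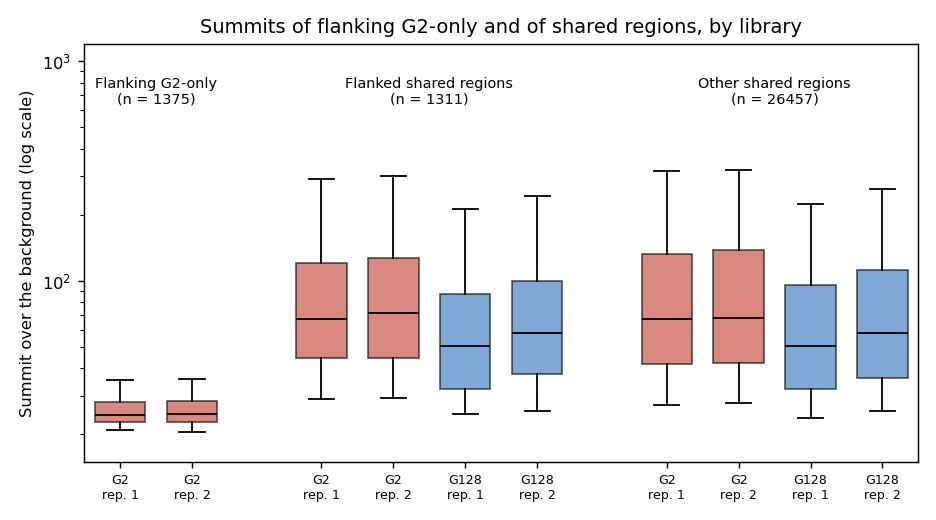
Summit over the background (y axis, log scale) in each library for the flanking G2-only regions, their 1311 nearest shared regions and all other shared regions; boxes are quartiles with the median, whiskers the 5th and 95th percentiles. The flanking regions have medians of 24.6 and 24.8, and the shared regions beside them 67.3 and 71.6 on G2.

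The strongest flanking region by its worse rank was 8:111279284–111279895, 612 bp long and 3539 bp from a shared region. Its summits were 39.1 and 44.6 in G2 replicates 1 and 2, above those of its shared neighbour in the same libraries, which were 31.8 and 32.1. That neighbour had 20.9 and 31.9 in G128 replicates 1 and 2. The region 4:119862330–119862938 had summits of 50.03 and 67.2 on G2 and began 421 bp from its neighbour. The region 1:134271818–134272253, at 646 bp, had 40.02 and 59.9, and 19:10021527–10021930, at 602 bp, had 42.8 and 45.3. The worse ranks of the 10 strongest were 17685 to 20702 in lists of 42358 and 41585 peaks, so all stood in the middle of the lists.

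Some others of the 10 strongest sat beside much higher neighbours, while another exceeded its neighbour. The region 6:86990961–86991279 had summits of 43.7 and 53.3 on G2, 762 bp from a shared region of 244 and 258 on G2 and of 178 and 181 on G128. The region 1:156920907–156921435 had 38.2 and 38.7 on G2, 328 bp from a neighbour of 158 and 136 on G2 and of 120 and 141 on G128. In that neighbour the ranges of the 2 groups overlapped. The region 15:78931914–78932283, with 57.3 and 51.9 on G2, was higher than its neighbour at 48.2 and 50.4 on G2, which was lower there than on G128 with 52.2 and 52.4.

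A few shared regions had several G2-only regions around them. Counting every shared region within 5000 bp and not the nearest alone, 1742 shared regions had at least 1 flanking G2-only region, of which 1637 had 1, 4 had 3 and the others 2. Around the shared region 6:124943257–124943813, all 3 lay on the side of higher coordinates, at 121, 2816 and 3129 bp. The nearest of them had summits of 20.9 and 29.2 in G2 replicates 1 and 2. The shared region itself had 57.3 and 72.3 on G2, against 42.7 and 51.0 on G128, so that its G2 summits stood above those on G128. These summits and those of the next shared regions are not centred. Both G2 summits were above both G128 summits in 67.6% of all shared regions.

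Around 6:55227391–55227990 the G2-only regions lay on both sides, at 153 and 1264 bp below and 159 bp above. Its own summits were 58.2 and 46.0 on G2, against 26.6 and 38.3 on G128. The shared region 2:77118715–77119428 had G2-only regions at 396 bp below and at 258 and 2938 bp above, and summits of 45.5 and 58.5 on G2, against 33.2 and 43.2 on G128. The fourth, 19:5833718–5834806, was itself weak, with 28.2 and 35.1 on G2, against 25.6 and 24.1 on G128. Its peaks in G128 replicates 1 and 2 did not overlap and were joined through a wider peak of G2 replicate 2. The G2-only regions around it lay at 1386, 2975 and 4026 bp below. The highest shared region with 2 of them was 5:143666817–143669379, with 347 and 347 on G2, against 236 and 280 on G128.

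**Figure D4:**
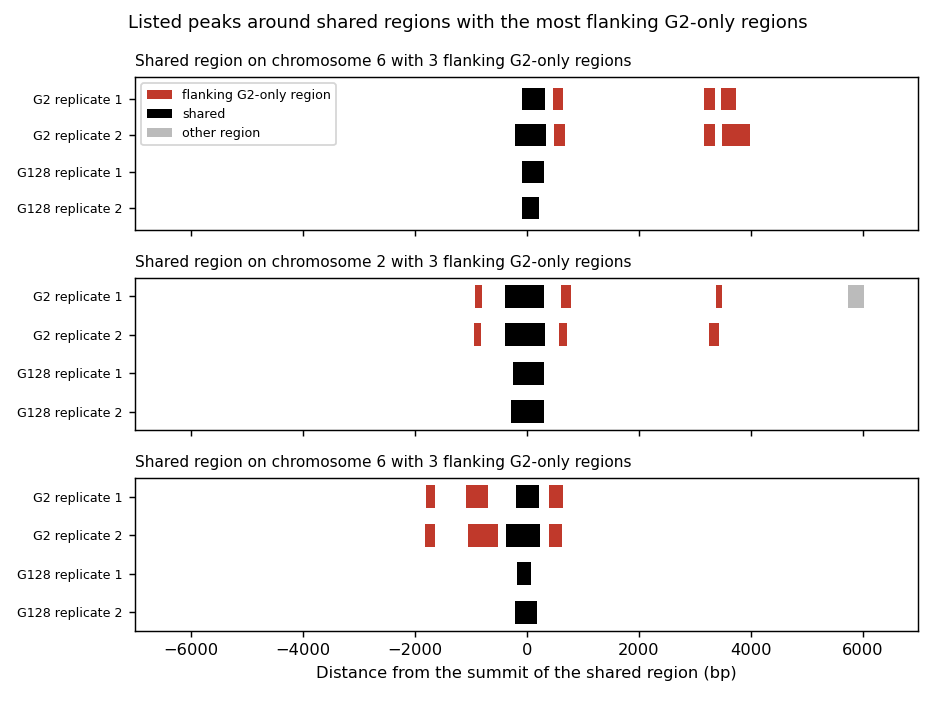
Listed peaks of each library (rows) within 7000 bp of the summit of 3 shared regions with 3 flanking G2-only regions each (x axis, distance in bp); red bars are flanking G2-only regions, black the shared regions and grey other regions. The red bars stand in both G2 rows and in neither G128 row, as the rule requires, while the black bars stand in all 4.

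The shared regions next to flanking G2-only regions were close to other shared regions in height. Their median summits were 67.3 and 71.6 in G2 replicates 1 and 2, against 50.3 and 58.1 in G128 replicates 1 and 2. In the 26457 other shared regions the medians were 67.3 and 67.9 on G2, against 50.3 and 58.1 on G128. The flanked regions were less often among the very high ones, with upper quartiles of 121 and 127 on G2, against 133 and 139 in the other shared regions. With all shared regions ordered by height and cut into 4 equal parts, 4.22% of the lowest part were nearest to a flanking G2-only region (3.77 to 4.72%), 5.14% of the next (4.65 to 5.69%), 5.34% of the third (4.84 to 5.90%) and 4.18% of the highest (3.73 to 4.67%).

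The difference of the flanked shared regions between G2 and G128 was slightly above that of all shared regions. The median log2 difference of G2 minus G128, before centring, was 0.36 in the 1311 flanked regions and 0.34 in the 26457 others. For the flanked regions the replicates 1 differed by 0.45 and the replicates 2 by 0.28, against 0.43 and 0.24 for all shared regions. The flanked regions thus stood above all shared regions by 0.019 in replicates 1 and by 0.036 in replicates 2. Shared regions nearest to G2-only regions beyond 5000 bp also stood above, by 0.011 in replicates 1 and by 0.030 in replicates 2. The excess was thus not particular to the flanks. With only the peaks above the median p of each list, the overall gap was −0.00616. Both G2 summits were above both G128 summits in 932 flanked regions (71.1%), against 67.4% of the others. Both were below in 20 (1.53%), against 2.85% of the others. This contrast is the same as that of the rule and was not tested.

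The median difference was larger in shared regions with a G2-only region within 1000 bp than in those with one farther away. It was 0.40 for shared regions with a G2-only region within 500 bp, 0.40 at 500 to 1000 bp, 0.34 at 1000 to 2000 bp and 0.33 at 2000 to 5000 bp. Relative to all shared regions, the gap within 500 bp was 0.039 in replicates 1 and 0.066 in replicates 2, and at 500 to 1000 bp it was 0.054 and 0.060. At 2000 to 5000 bp it was −0.020 and −0.014, below both nearer bands in each replicate. Shared regions nearest to G2-only regions beyond 5000 bp had a median difference of 0.36. These bands were not tested.

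Shared regions beside other patterns had close differences with an exception. The medians were 0.34 beside regions of both replicates 2, 0.32 beside G2 replicate 1 with G128 replicate 2, 0.31 beside G2 replicate 2 with G128 replicate 1, and 0.30 beside both replicates 1. Beside the 76 G128-only regions of the flanks it was 0.16. Of the shared regions beside G2-only regions 92.2% were higher on G2, and so were 49 of the 76 beside G128-only regions (64.5%), against 90.0% of all shared regions. For these 76 the replicates 1 differed by 0.22 and the replicates 2 by 0.087.

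**Figure D5:**
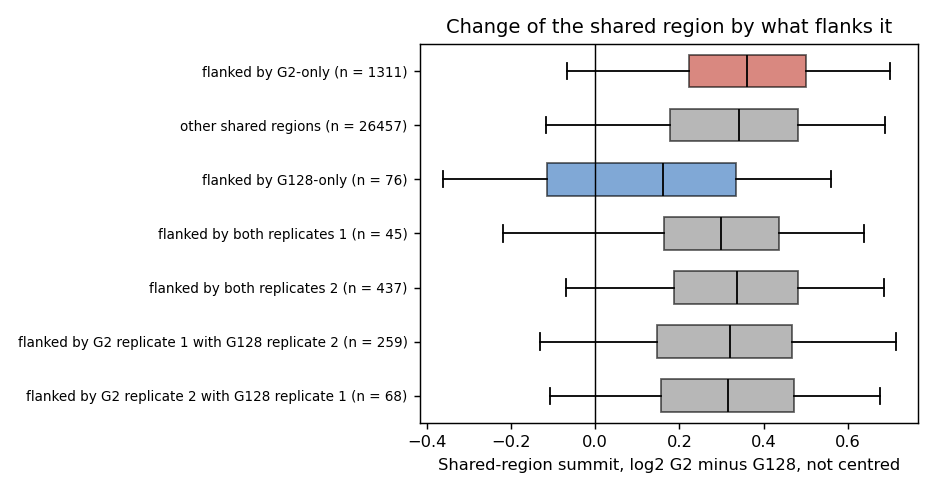
Summit of shared regions as log2 G2 minus G128, not centred (x axis), grouped by the pattern of the region that flanks them within 5000 bp (rows, n = shared regions, which may stand in several rows); boxes are quartiles with the median, whiskers the 5th and 95th percentiles. The median is 0.36 beside G2-only regions and 0.34 in the other shared regions, and 0.16 beside G128-only regions.

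Single shared regions were tested with limma on log2 summits, each library centred at its median over the 27768 shared regions, with Benjamini-Hochberg adjustment over all of them at 0.05. limma called 0 of the 1311 flanked regions higher on G2 and 0 lower, beside a background of 0% of all shared regions in each direction. At an unadjusted p under 0.05, 76 of the 1311 flanked regions were higher and 87 lower, beside 1547 and 2408 of all 27768 shared regions. The fit was also run on simulated summits of 27768 shared regions, in which a log2 difference of 0.5 was given to 100 regions and of 1 to another 100. It recovered 0 of either set, so its count of 0 does not show that no region differed. A trend of the variance over the mean summit was added to limma after these counts were seen. In the simulation, whose noise was set after the spread of the real replicates was seen, it recovered 34 and 87 with 1 false call. The simulated noise had the same dispersion for every region, so this count does not give the error of the fit in the real libraries. With the trend, 16 flanked regions were higher on G2 (1.22%), beside a background of 0.601%, and 6 were lower (0.458%), beside 0.864%. Nothing is read from these counts, since the same lists chose the flanked regions. With the trend, the counts rose or fell with the library left out, in the flanked regions as over all shared regions. Such fits leave 1 library in a group and hold no spread for that group.

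The largest difference among the 16 regions called with the trend was at 10:77767697–77768254, with summits of 83.7 and 79.6 on G2, against 30.4 and 26.9 on G128. Its centred log2 difference was 1.18 ± 0.16 (SE; adjusted p = 0.0741, limma), with an adjusted p of 0.00023 in limma with the trend. A G2-only region lay 906 bp from it. The shared region 4:62889872–62890567 had 130 and 145 on G2, against 50.3 and 46.8 on G128. Its difference was 1.17 ± 0.16 (SE; adjusted p = 0.0741, limma), with 1.96e-05 in limma with the trend. The neighbour of the second strongest flanking region, 4:119861203–119861908, was also among the 16, with 105 and 97.9 on G2, against 40.8 and 46.8 on G128. Its difference was 0.88 ± 0.14 (SE; adjusted p = 0.0741, limma), with 0.00153 in limma with the trend. In these 3 regions the groups did not overlap. The planned limma fit, without the trend, called none of the 3, and they were picked after their values were seen. The same peak lists and the same contrast of G2 with G128 also chose the flanking regions. A call beside a strong flanking region is therefore no separate evidence, and nothing is read from it.

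Among the 6 called lower with the trend, 7:82543498–82543662 had 20.01 and 21.9 on G2, against 31.3 and 32.6 on G128. Its difference was −0.94 ± 0.14 (SE; adjusted p = 0.0741, limma), with an adjusted p of 0.0155 in limma with the trend. The highest was 9:35112752–35113226, with 878 and 777 on G2, against 1309 and 925 on G128. There the difference was −0.75 ± 0.21 (SE; adjusted p = 0.173, limma), with 0.000158 in limma with the trend. The flanking G2-only regions of these lay 307 and 1949 bp away, and in both shared regions the G2 summits stood below those on G128. The planned limma fit called neither region, and both were likewise picked after their values were seen.

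The flanked shared region reached less far towards the G2-only region than away from it when that region lay within 500 bp, and slightly farther when it lay beyond, in all 4 libraries. Lengths ran from the highest summit of the shared region over all 4 libraries to the outermost peak edge of each library in that region. On the side of the flanking region their medians were 266 and 294 bp in G2 replicates 1 and 2, against 210 and 252 bp in G128 replicates 1 and 2. On the other side these medians were 260 and 290 bp on G2, against 204 and 247 bp on G128. The side of the flanking region was the longer in 51.6% and 51.2% of cases on G2, against 50.8% and 50.5% on G128. Where the flanking region lay within 500 bp, its side was the longer in 47.0% and 47.9% of cases on G2, against 43.9% and 43.3% on G128. From 500 to 2000 bp it was the longer in 54.3% and 52.9% on G2, against 54.1% and 52.2% on G128, and from 2000 to 5000 bp in 53.6% and 52.8% on G2, against 54.3% and 55.7% on G128. Beside the other 2-library patterns pooled, the side of the flanking region was the longer in 48.0% to 49.3% of cases within 500 bp, over the 4 libraries. In those patterns it was the longer in 47.5% to 49.3% from 500 to 2000 bp and in 43.2% to 45.5% from 2000 to 5000 bp. Departures from equal sides thus also occurred beside other patterns, and these shares were not tested. Peaks in shared regions were wider on G2 on both sides alike, and the bases in peaks per flanked region had medians of 548 and 612 on G2, against 442 and 521 on G128. In the other shared regions they were 533 and 592 on G2, against 436 and 522 on G128.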

How the data were processed

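Per the submitters' processing notes, Genrich 0.5, Bowtie2 2.2.5, SAMtools 1.7 and deepTools were among the tools, on build mm9. Their roles and settings, and the treatment of duplicates and of the transposase shift, are not given in the sources used here. The authors deposited 1 peak list per library with a score, a signal, −log10 p-values and −log10 q-values, all the authors' own values. Deposited signal was used to rank peaks within a list. The 4 RNA libraries were not analysed here.

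Summit pileups were recovered as whole numbers from the lowest 100 distinct p-values of each list, whose normal quantiles rise linearly with the log of consecutive whole numbers (largest deviation from a whole number 0.00179). Distances run from edge to edge, and coordinates are counted from 1. Regions named were the 10 flanking regions with the best worse rank by signal, the 5 shared regions with the most flanking regions, those at the distance limit, and, chosen after their values were seen, shared regions called by limma. The regions and tests were chosen with earlier results of these data known. The planned limma fit has no variance trend and made no call. The trend was added after that, when an earlier count of calls in these data was known. Scripts used Python 3.11.15, scipy 1.17.1, R 4.3.3 and limma 3.58.1 and were tested on simulated data. Alternatives concerned overlap, threshold, list length, width, distance, chromosomes, centring, the replicate block and each library.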

Additional observations from a re-analysis of the deposited data

How the results depend on the processing

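The share of G2-only regions in the flanks was below that of the other patterns under all 16 alternatives, while its size moved. For the count of flanking regions, the share of G2-only regions, the share of other patterns and the difference in points, 50% reciprocal overlap gave 1482, 33.8%, 53.8% and −19.9. In the same order, 500 bp windows gave 1181, 32.9%, 56.3% and −23.3, a p 10 times below the weakest gave 687, 28.8%, 35.8% and −7.05, and peaks above the median p gave 429, 24.2%, 32.9% and −8.69. Equal lists gave 451, 32.6%, 43.0% and −10.5, peaks of at least 200 bp 901, 31.8%, 40.9% and −9.13, and summits of at least 30 times the background, added after the data were seen, 694, 29.8%, 39.0% and −9.29. Fewer peaks enter under these 5 settings. A limit of 2000 bp gave 869, 22.7%, 37.9% and −15.1, and of 10000 bp 1864, 48.8%, 60.5% and −11.7. Distance between summits gave 34.3% of G2-only regions. Only regions beyond 500 bp, also added later, gave 27.4%, 32.4% and −5.06. Leaving out each library gave 1768 to 3340 regions, 37.9% to 41.2%, 46.0% to 59.9% and −22.0 to −5.33, with fewer libraries to meet. Without a G2 replicate, both shares were of regions listed in a single library, so the comparison differed from the main comparison.

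The flanked shared regions exceeded all shared regions by a log2 difference of 0.0188, against 0.0417 at 2000 bp, −0.00616 with peaks above the median p and 0.0162 to 0.0314 without each library. The median height of a flanking region relative to its neighbour was 36.4%. It was 35.4% with 500 bp windows, 40.8% with a p 10 times below the weakest, 45.7% above the median p, 42.6% with equal lists, 35.5% at 200 bp width, 35.5% and 38.4% at 2000 and 10000 bp, 40.9% at 30 times the background and 33.7% to 44.0% without each library.

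In limma, flanked regions called higher and lower were 0 and 0, as they were with quantile normalization and cyclic loess, against 315 and 1 with no centring, 4 and 0 with a mean summit of at least 40, and 16 and 6 with the variance trend. Over all shared regions these last 3 settings gave 5869 and 68, 27 and 29, and 167 and 240, against 0 and 0. The setting with a mean summit of at least 40 kept 20075 shared regions, 979 of them flanked, against 27768 and 1311 in the others. No centring leaves in the median difference of 0.34 (log2). Without each library, 0 flanked regions were called in each direction, and over all 0 to 3 higher and 0 to 15 lower. With the trend, flanked calls were 4 and 1 without G2 replicate 1, 5 and 2 without G2 replicate 2, 27 and 11 without G128 replicate 1, and 29 and 15 without G128 replicate 2. In the same order the calls over all were 22 and 96, 16 and 47, 424 and 205, and 438 and 434. The replicate block gave 21 and 15 flanked and 274 and 656 in all. After centring, deviations of the replicates 1 from their group means had a correlation of 0.00279 over regions. This value does not show whether libraries of the same number shared a batch, and replicate 2 was the deeper library in both groups. The cause of the other moves was not tested. Regions under the threshold of the caller give no value, so differences there were not detectable.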

Other observations

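Flanking G2-only regions lay on 20 chromosomes, all but Y. Chromosome 7 had 112, or 6.08 per 100 shared regions, and chromosome 4 had 107, or 5.86 per 100. X had 13, or 2.83 per 100, and chromosome 10 had 47, or 3.52 per 100. As a share of the G2-only regions of a chromosome, those in the flanks were 43.9% on chromosome 6 and 43.6% on chromosome 7, and 24.4% on chromosome 14 and 25.9% on chromosome 13. These chromosomes were singled out after their values were seen, and the differences were not tested. Peaks were split more often on G128 in flanked shared regions: more than 1 peak was listed in 6.71% and 2.59% of the 1311 regions in G2 replicates 1 and 2, against 10.5% and 9.31% in G128 replicates 1 and 2. In the other shared regions these shares were 6.50% and 2.70% on G2, against 9.38% and 7.95% on G128, and the difference was not tested.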
